A study of Mus musculus with 4 samples.

Results

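The replication-dependent histone genes were taken as every row whose symbol begins with Hist1h, Hist2h, Hist3h or Hist4h. This rule found 67 of the 23284 genes listed in each of the 4 libraries. Of these, 53 lie on chromosome 13 (the Hist1 cluster), 10 on chromosome 3 (Hist2), 3 on chromosome 11 (Hist3) and 1 on chromosome 6 (Hist4). They encode 6 linker histones H1, 18 H2A, 18 H2B, 12 H3 and 13 H4, with 1 processed pseudogene, Hist3h2bb-ps, among the H2B entries.

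RNA was sequenced from EGFP+ cells re-sorted from mouse bone marrow 24 h after a transplant. The donor cells were 100000 LSK cells (Lin- Sca1+ c-Kit+, the marrow fraction that holds hematopoietic stem and multipotent progenitor cells) from CAG-EGFP mice, in which the ubiquitous CAG promoter drives EGFP. One group of wild-type recipients had been given 5-fluorouracil (5-FU, a pyrimidine analog that is toxic to dividing cells) intravenously at 200 mg/kg 2 days before the transplant, and the control recipients were untreated. There were 2 libraries per group, labelled as biological replicates, each from the mononuclear cells of femurs and tibias. The sort named in the labels is on EGFP, which the donor cells carried. It followed the transplant, so the cells sequenced need no longer be LSK cells. Whether every sorted cell was of donor origin was not measured. The sources used here give neither ages nor strains, nor whether donor cells came from 1 pool.

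Replication-dependent histone genes supply the proteins that package newly made DNA, and their mRNAs accumulate in S phase and are degraded when replication stops. Their mRNAs are unusual in ending at a conserved stem-loop instead of a poly(A) tail. The stem-loop is bound by SLBP, the stem-loop binding protein, and a U7 small nuclear RNP guides the cleavage just after it. Some of these genes are also known to give polyadenylated transcripts that run past the stem-loop, in differentiated cells among others. The cDNA kit used here (SMART-Seq Ultra Low Input) is one that primes at poly(A) tails, so the levels below need not follow the total histone mRNA of the cells, and the share of polyadenylated histone transcripts was not measured.

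The stem-loop was looked up in the GENCODE transcripts of build GRCm38 by its 16-letter consensus, 3 letters of it free, on the sense strand. It was found in 42 of the 67 histone cluster genes and in 47 of 58797 protein-coding transcripts (0.08%). The 3 other genes with a match were H2afx, H2bfm and Trim17, the last of which overlaps Hist3h2a on the same strand. The most frequent form, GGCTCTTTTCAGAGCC, was in 26 of the histone cluster genes and the next, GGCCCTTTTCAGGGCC, in 7. The sequences below are those of 6 of the most abundant members, shown because the results turn on them. They are the DNA letters of the sense strand, with the stem-loop in capitals and 5 flanking bases on each side. Hist1h4d (chr13:23581945-23581970, + strand) and Hist1h4i (chr13:22040961-22040986, - strand) encode H4, Hist1h2bg (chr13:23571838-23571863, + strand) H2B, Hist1h2ae (chr13:23570663-23570688, - strand) and Hist3h2a (chr11:58955167-58955192, + strand) H2A, and Hist1h1c (chr13:23739507-23739532, + strand) linker histone H1.2.
Hist1h4d: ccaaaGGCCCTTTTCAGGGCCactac
Hist1h4i: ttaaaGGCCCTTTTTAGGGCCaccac
Hist1h2bg: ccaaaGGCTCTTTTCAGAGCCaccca
Hist1h2ae: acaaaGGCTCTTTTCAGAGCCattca
Hist3h2a: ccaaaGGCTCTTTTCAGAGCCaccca
Hist1h1c: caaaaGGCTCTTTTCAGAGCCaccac

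Values are FPKM as deposited (fragment counts scaled to transcript length and library size). They summed to 678270 and 762107 in 5-FU recipients 1 and 2, and to 680412 and 678222 in control recipients 1 and 2, and 14062 to 14395 genes per library were above 0. No read totals are given in the labels. In many genes, though not in all, low values were whole multiples of a step that belongs to the gene. From these steps 1 read was worth 1.07 and 1 in 5-FU recipients 1 and 2 and 1.31 and 1.26 in control recipients 1 and 2, relative to 5-FU recipient 2. For a given gene, a value of the same size therefore rested on more reads in the 5-FU libraries. Read numbers below are the smallest whole numbers that give a gene's values, and the true numbers may be multiples of them. Hist1h2ai, for example, came out at 1.08 FPKM per read, while Hist1h2ak and Hist1h2an, each of 393 annotated bases like Hist1h2ai, came out at 0.538 FPKM. Reads that match several near-identical histone copies may have been split or dropped, and the labels do not say how they were counted, so values of single copies are less certain than sums over a histone type.

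Above 0 were 44 and 48 of the 67 histone cluster genes in 5-FU recipients 1 and 2, and 41 and 39 in control recipients 1 and 2. These are 65.7% and 71.6% in 5-FU recipients and 61.2% and 58.2% in control recipients, beside 60.4% to 61.8% of all genes in a library. At 1 FPKM or more there were 33 and 35 in 5-FU recipients and 29 and 27 in control recipients. In at least 1 library 53 members were above 0, and 32 were above 0 in every library. Above 0 in 5-FU libraries alone were 7 members, namely Hist1h1t, Hist1h2af, Hist1h2ah, Hist1h3g, Hist1h3h, Hist1h3i and Hist1h4b, and in control libraries alone 3, namely Hist1h4a, Hist1h4m and Hist3h2bb-ps. The remaining 14 members were listed at 0 in all 4 libraries (20.9%, beside 29.6% of all genes). They are Hist1h2aa and Hist1h2ba, which are known as testis histones, and Hist1h2ad, Hist1h2ao, Hist1h2ap, Hist1h2bk, Hist1h2bl, Hist1h2br, Hist1h4j, Hist1h4k, Hist1h4n, Hist2h2aa1, Hist2h2aa2 and Hist2h2ab. A listed 0 need not mean that no transcript was present, since copies that share their sequence share their reads. Presence and absence were not tested, and for 14 of the members above 0 the smallest read number was 10 or fewer over the 4 libraries. Among these were Hist1h2af, Hist1h3g, Hist1h3h and Hist1h3i, seen in 5-FU libraries alone, and Hist1h4m, seen in control libraries alone. A read was worth less FPKM in the 5-FU libraries (1.07 and 1, against 1.31 and 1.26 in control recipients). The same low level could therefore be missed more easily in a control library. How all genes split in this way was not counted, and the part of read depth in the split was not tested.

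Summed over all 67 members, histone cluster transcripts reached 538 and 779 FPKM in 5-FU recipients 1 and 2, against 475 and 391 FPKM in control recipients 1 and 2. These sums are 0.0792% and 0.102% of all FPKM in 5-FU recipients and 0.0699% and 0.0576% in control recipients. The means were 658.4 ± 170.9 FPKM in 5-FU recipients and 433.2 ± 59.7 FPKM in control recipients (SD, n = 2 each), a log2 ratio of 0.60. Both 5-FU libraries were above both control libraries, and the 4 ratios between single libraries ran from 0.18 to 1.00 on the log2 scale. The sum was dominated by few genes. Hist1h4d, Hist1h2bc, Hist1h2ae, Hist1h1c and Hist1h2bg together made up 77.3% of it, and Hist1h4d alone 33.5%. Without Hist1h4d the sums overlapped, at 366.0 ± 65.5 FPKM in 5-FU recipients and 360.1 ± 54.3 FPKM in control recipients (SD, n = 2 each), a log2 ratio of 0.024. In a bulk library fewer cells of a type and less RNA per cell cannot be told apart.

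By histone type, the sums moved in both directions. H4 summed to 257 and 403 FPKM in 5-FU recipients, against 103 and 83.5 FPKM in control recipients, a log2 ratio of 1.82 that was 0.89 without Hist1h4d. For H3 the sums were 14.5 and 14.5 FPKM in 5-FU recipients and 9.48 and 8.92 FPKM in control recipients (log2 ratio 0.66). H2B went the other way, with 134 and 117 FPKM in 5-FU recipients, against 233 and 193 FPKM in control recipients (log2 ratio -0.76). The other 16 H2B genes, without Hist1h2bc and Hist1h2bg, summed to 14.6 and 35.0 FPKM in 5-FU recipients, against 17.3 and 10.98 FPKM in control recipients, and these groups overlapped (log2 ratio 0.81). H2A summed to 62.5 and 166 FPKM in 5-FU recipients and to 66.4 and 45.1 FPKM in control recipients, so the groups overlapped, and the log2 ratio of 1.03 was 0.30 without Hist1h2ae. H1 summed to 69.9 and 79.0 FPKM in 5-FU recipients and to 62.9 and 60.7 FPKM in control recipients (log2 ratio 0.27). The ratio of summed H2A to summed H2B was 0.466 and 1.42 in 5-FU recipients and 0.284 and 0.234 in control recipients. These sums were not tested; an exact permutation test of 2 against 2 libraries cannot go below p = 0.333.

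**Figure D1:**
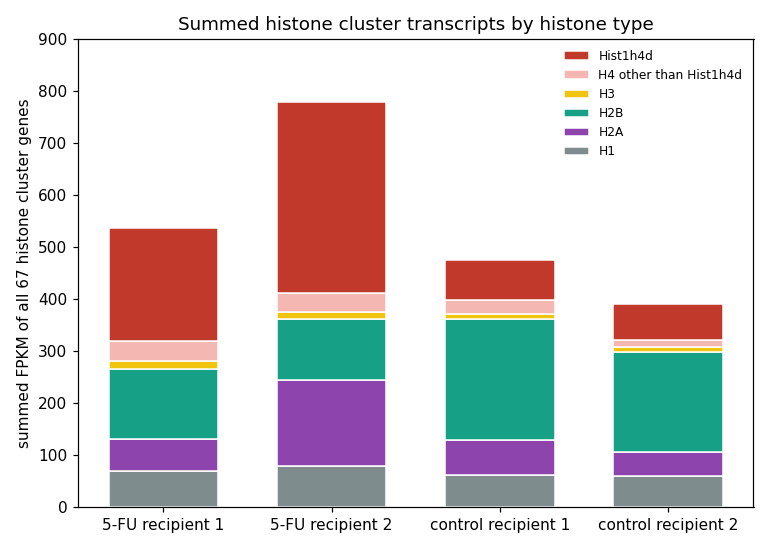
Summed FPKM of the 67 histone cluster genes in each library, stacked by histone type, with Hist1h4d drawn apart from the other H4 genes. Hist1h4d is 40.5% and 47.1% of the sum in 5-FU recipients 1 and 2, and 16.2% and 17.7% in control recipients 1 and 2, and the H2B part is smaller in both 5-FU bars.

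The comparison of single genes asks which histone transcripts differ between EGFP+ cells recovered from 5-FU-treated and from untreated marrow. Of the 67 members, 34 had 1 FPKM or more in at least 2 libraries and were tested with all 11496 such genes (limma on log2(FPKM + 1), Benjamini-Hochberg adjusted p under 0.05). Hist1h4d, Hist1h4i and Hist1h1b rose in 5-FU recipients, Hist1h2bg fell, and 30 did not pass. Among all tested genes 8.23% passed as higher and 4.67% as lower, beside 8.82% and 2.94% of the members, so these shares are close to the background. A positive fold change was found for 23 of the 34 (67.6%, beside 49.2% of all tested genes), and the median log2 fold change was 0.61, beside -0.01 over all tested genes. Both 5-FU libraries were above both control libraries for 13 of the 34, and below both for 6. The corresponding shares of all tested genes were 31.4% and 30.7%. The unadjusted limma p was under 0.05 for 11 of the 34 (32.4%), beside 31.4% of all tested genes, so this share too is close to the background. A member with reads in 1 group alone could pass the filter only by differing. Hist1h2bh and Hist1h2bn reached 1 FPKM in 5-FU libraries alone, and Hist3h2ba in control libraries alone. For these the filter favoured a difference in that direction, so all these counts are descriptions. All fold changes are on the log2(FPKM + 1) scale, which understates the change of low genes.

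**Figure D2:**
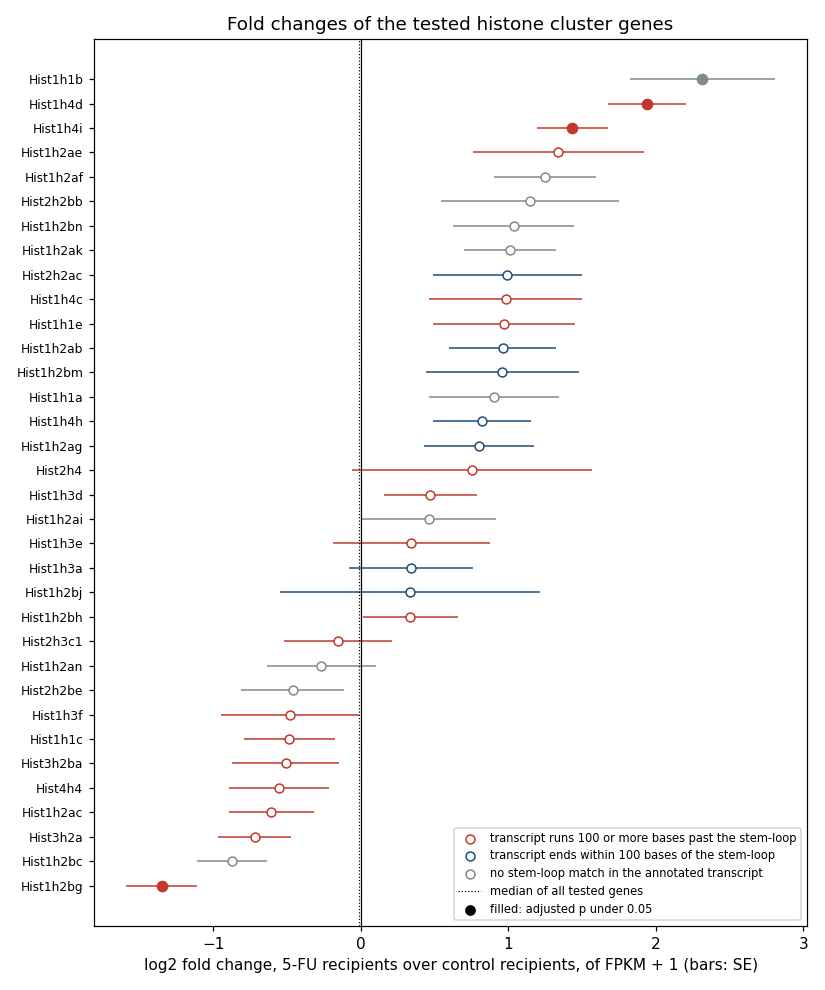
Log2 fold change of FPKM + 1, 5-FU recipients over control recipients, of the 34 tested histone cluster genes, with bars of 1 SE and colours for where the annotated transcript ends. Filled points passed the threshold: Hist1h1b, Hist1h4d and Hist1h4i on the positive side and Hist1h2bg on the negative side.

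Histone H4, which pairs with H3 in the nucleosome core, held the most abundant member and 2 of the 3 members that rose. Hist1h4d (ENSMUSG00000061482, chr13:23581598-23582735 in GRCm38) had 218 and 367 FPKM in 5-FU recipients 1 and 2, against 76.9 and 69.2 FPKM in control recipients 1 and 2. Its log2 fold change was 1.94 (SE 0.27, limma adjusted p = 0.0109), and the lower 5-FU library was well above both control libraries. Hist1h4i (ENSMUSG00000060639, chr13:22040636-22041362) had 17.8 and 20.3 FPKM in 5-FU recipients, against 6.73 and 6.09 FPKM in control recipients (log2 fold change 1.44, SE 0.24, limma adjusted p = 0.016). Behind these values stood at least 55 and 67 reads in 5-FU recipients and 17 and 16 reads in control recipients. Both are single-exon genes, and the annotated transcripts run 770 bases past the stem-loop in Hist1h4d and 330 bases in Hist1h4i. The H4 genes are known to encode essentially the same protein.

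The other H4 members did not pass. Hist1h4h had 4.34 and 4.43 FPKM in 5-FU recipients, against 1.45 and 2.78 FPKM in control recipients, without overlap (limma adjusted p = 0.139). Hist1h4c had 6.99 and 6.54 FPKM in 5-FU recipients, against 6.10 and 1.17 FPKM in control recipients, the lowest value standing for at least 1 read. Hist2h4 had 4.54 and 2.83 FPKM in 5-FU recipients, against 6.47 and 0 FPKM in control recipients, so the control libraries lay on both sides. Hist4h4, on chromosome 6, was lower, with 2.11 and 1.45 FPKM in 5-FU recipients and 3.85 and 2.39 FPKM in control recipients (log2 fold change -0.55, limma adjusted p = 0.302). The inferred worth of 1 read in 5-FU recipient 2 was 0.0373 FPKM for Hist4h4 and 0.934 FPKM for Hist1h4c, and the Hist4h4 values stand for at least 53 and 39 reads in 5-FU recipients and 79 and 51 in control recipients.

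The promoters of the H4 genes share a sequence that most other promoters lack. In the RefSeq promoters (GRCm38.p6, from 250 bases before to 50 after the start, 61 of 67 members matched), GGTCCG on either strand was in 11 of 12 H4 promoters, against 8.25% of all 32851 promoters. CCAAT, on either strand, was in 3 of 12 H4 promoters but in every H1, H2A, H2B and H3 promoter, against 37.4% of all promoters. TATAAA was in 57.4% of the members' promoters and in 13.6% of all. The promoters of the 2 H4 genes that rose are printed, with these 3 motifs, or their reverse complements, in capitals. They lie at chr13:23581318-23581617 (+ strand, Hist1h4d) and chr13:22041313-22041612 (- strand, Hist1h4i). A match is a run of letters and not a shown binding site, and no data here measure binding.
Hist1h4d: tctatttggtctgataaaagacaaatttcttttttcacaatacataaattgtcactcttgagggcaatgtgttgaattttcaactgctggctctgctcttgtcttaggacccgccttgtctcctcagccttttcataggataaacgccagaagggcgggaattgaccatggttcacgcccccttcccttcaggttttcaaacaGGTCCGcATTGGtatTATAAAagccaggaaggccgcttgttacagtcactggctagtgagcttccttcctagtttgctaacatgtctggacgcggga
Hist1h4i: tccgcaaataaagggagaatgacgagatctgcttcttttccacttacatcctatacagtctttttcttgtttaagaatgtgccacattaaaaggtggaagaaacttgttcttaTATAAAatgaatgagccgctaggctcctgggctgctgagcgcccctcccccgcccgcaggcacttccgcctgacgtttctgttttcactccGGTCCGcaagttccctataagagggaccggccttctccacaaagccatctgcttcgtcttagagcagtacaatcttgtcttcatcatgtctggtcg

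Linker histones H1 bind the DNA between nucleosomes. Hist1h1b, which encodes H1.5 and lies at chr13:21779883-21780625, had 7.81 and 15.5 FPKM in 5-FU recipients, against 2.81 and 0.540 FPKM in control recipients. Its log2 fold change of 2.31 (SE 0.49, limma adjusted p = 0.0261) was the largest of the 34 members. The values rest on at least 17 and 36 reads in 5-FU recipients and on 5 and 1 in control recipients. Without control recipient 2, the library with the lowest value, the log2 fold change was 1.66 and the limma adjusted p = 0.118. Hist1h1c, the most abundant H1 gene, had 43.6 and 23.3 FPKM in 5-FU recipients, against 39.5 and 51.5 FPKM in control recipients, and the groups overlapped (limma adjusted p = 0.319). Hist1h1a had 7.91 and 14.8 FPKM in 5-FU recipients, against 8.45 and 3.25 FPKM in control recipients. Hist1h1e had 9.71 and 24.3 FPKM in 5-FU recipients, against 11.2 and 4.797 FPKM in control recipients. In both of these, 5-FU recipient 2 was highest and control recipient 2 lowest, while the other libraries lay close together. Of the low H1 genes, Hist1h1d stayed between 0.5004 and 1.04 FPKM and the testis gene Hist1h1t had 0.303 FPKM in 1 library.

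H2B, the partner of H2A, held the member that fell. Hist1h2bg (ENSMUSG00000058385, chr13:23571396-23572013) had 24.9 and 16.6 FPKM in 5-FU recipients, against 55.3 and 51.7 FPKM in control recipients (log2 fold change -1.35, SE 0.24, limma adjusted p = 0.0174). Hist1h2bc (chr13:23684199-23692908), the most abundant H2B gene, had 94.5 and 65.3 FPKM in 5-FU recipients, against 161 and 130.1 FPKM in control recipients. Its groups did not overlap, and its log2 fold change of -0.87 (SE 0.24) missed the threshold (limma adjusted p = 0.0518). The annotated Hist1h2bc transcript has 2 exons and no stem-loop match, and is therefore one of the few spliced members. The other tested H2B genes reached at most 14.4 FPKM. Hist1h2bj had 0.616 and 14.4 FPKM in 5-FU recipients, against 3.01 and 2.89 FPKM in control recipients, which stand for at least 1 and 25 reads in 5-FU recipients and 4 and 4 in control recipients. The 5-FU libraries thus lay on opposite sides of the controls, and the log2 fold change of 0.34 was 1.96 without 5-FU recipient 1 and -1.29 without 5-FU recipient 2. Hist1h2bm had 3.08 and 9.78 FPKM in 5-FU recipients, against 3.76 and 1.45 FPKM in control recipients. Hist1h2bn, Hist2h2bb, Hist2h2be, Hist1h2bh and Hist3h2ba ranged from 0 to 4.86 FPKM, and none passed. Hist1h2be, which shares its locus with Hist1h1e, was at 0.286 and 0.0438 FPKM in 5-FU recipients and at 0.859 and 0.827 FPKM in control recipients and was not tested.

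Among the 10 tested H2A genes none passed in limma, and 4 had an unadjusted p under 0.05, beside 31.4% of all tested genes. One of the 4 was Hist1h2af, for which the filter left no other outcome than a difference. Hist1h2ae (chr13:23570517-23571220) was highest, with 30.3 and 121 FPKM in 5-FU recipients and 31.8 and 17.2 FPKM in control recipients. Its excess lay in 5-FU recipient 2, since 5-FU recipient 1 was within the control values, and the log2 fold change of 1.34 had an SE of 0.58 (limma adjusted p = 0.161). Without 5-FU recipient 2 the log2 fold change was 0.36. Hist3h2a had 7.84 and 7.10 FPKM in 5-FU recipients, against 13.9 and 12.0 FPKM in control recipients, without overlap (log2 fold change -0.72, limma adjusted p = 0.0939). Reads of Hist3h2a and of the overlapping Trim17 on the same strand cannot be told apart. Hist1h2ab had 6.80 and 9.70 FPKM in 5-FU recipients, against 5.24 and 2.52 FPKM in control recipients, without overlap. Hist2h2ac had 2.93 and 10.9 FPKM in 5-FU recipients, against 2.86 and 2.06 FPKM in control recipients, with the excess again in 5-FU recipient 2. Hist1h2ac was lower, with 3.55 and 3.23 FPKM in 5-FU recipients and 6.44 and 4.99 FPKM in control recipients (limma adjusted p = 0.198). Hist1h2ak had 4.61 and 4.31 FPKM in 5-FU recipients, against 2.11 and 1.35 FPKM in control recipients (limma adjusted p = 0.0697). Hist1h2af had 1.73 and 1.08 FPKM in 5-FU recipients, at least 3 and 2 reads, and was listed at 0 in both control libraries. It passed the filter on low values only through the 5-FU libraries, so no fold or p is given for it. Hist1h2ag, Hist1h2ai and Hist1h2an lay between 0 and 4.14 FPKM.

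H3 transcripts were the scarcest, with 2.17% of the members' FPKM. The 5 tested H3 genes, Hist1h3a, Hist1h3d, Hist1h3e, Hist1h3f and Hist2h3c1, lay between 0.268 and 3.68 FPKM and had log2 fold changes from -0.48 to 0.47, none past the threshold of limma and none with an unadjusted p under 0.05 (31.4% of all tested genes). Hist1h3d was the one without overlap, at 2.63 and 2.45 FPKM in 5-FU recipients and 1.28 and 1.85 FPKM in control recipients, on at least 5 and 5 reads in 5-FU recipients and 2 and 3 in control recipients. Summed over the H3 genes, the smallest read numbers were 53 and 70 reads in 5-FU recipients and 48 and 44 in control recipients.

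**Figure D3:**
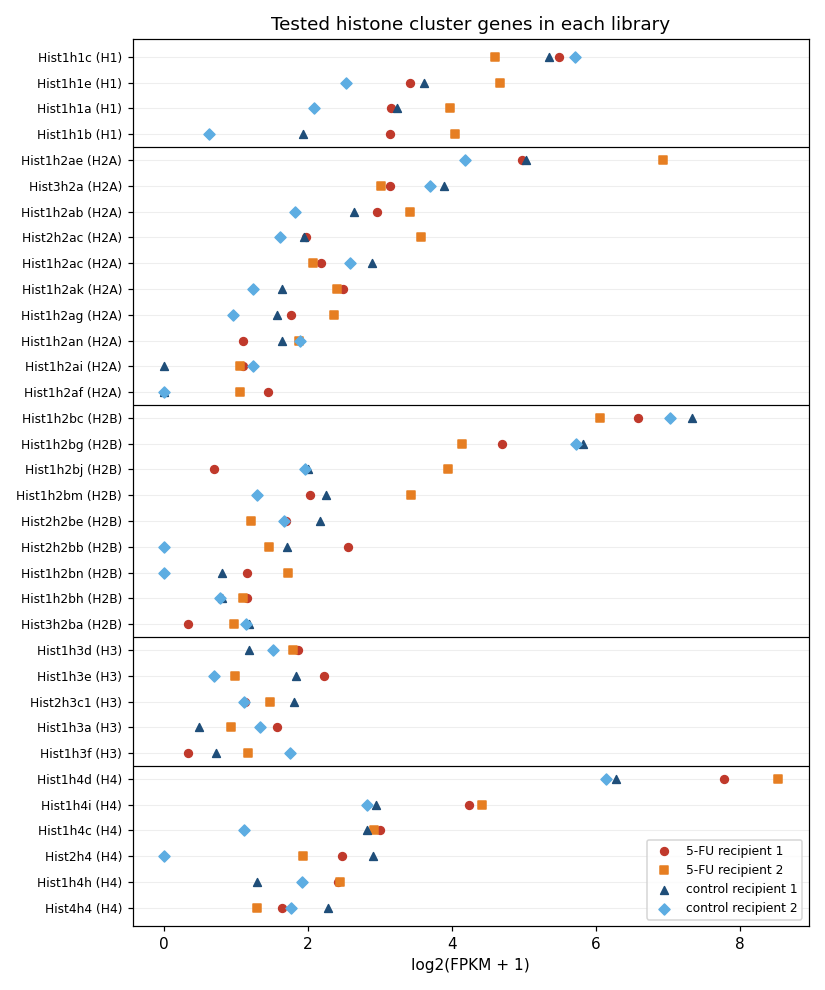
Log2(FPKM + 1) of the 34 tested histone cluster genes in each of the 4 libraries, grouped by histone type and ordered by mean level within it. Hist1h4d and Hist1h4i show both 5-FU points right of both control points, Hist1h2bg and Hist1h2bc show them left, and Hist1h2ae and Hist1h2bj show 5-FU recipient 2 far from 5-FU recipient 1.

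The 33 untested members added little. Of these, 19 were above 0 and 8 reached 1 FPKM in 1 library. Hist1h3g had the highest value, 3.16 FPKM in 5-FU recipient 2 on at least 9 reads, with 0.375 FPKM in 5-FU recipient 1 and 0 in both control libraries. Hist1h4b reached 2.997 FPKM and Hist1h3c 2.74 FPKM in 5-FU recipient 1, and Hist1h2bb reached 1.92, Hist1h3b 1.47 and Hist1h1d 1.04 FPKM in 5-FU recipient 2. Hist1h4f reached 1.22 FPKM in control recipient 1 and Hist1h4a 1.17 FPKM in control recipient 2. Together the untested members summed to 9.70 and 12.9 FPKM in 5-FU recipients and to 6.80 and 6.35 FPKM in control recipients. The others were below 1 FPKM in every library, and they include Hist1h2bf, Hist1h2bp, Hist2h3b and Hist2h3c2.

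The smallest whole number of reads behind the values could be found for 39 of the 48 members above 0 in at least 2 libraries (within 0.02 reads). The 9 for which it could not were Hist1h1c, Hist1h1e, Hist1h2ac, Hist1h2ae, Hist1h2bc, Hist1h2be, Hist1h2bg, Hist1h4d and Hist3h2a, which include the 5 most abundant. For members above 0 in only 2 libraries nearly any 2 values yield such a number, so their read numbers are the least certain. Over the 39 members the reads summed to 376 and 519 in 5-FU recipients and to 333 and 221 in control recipients, and for 27 of them this number was 30 or fewer over the 4 libraries. Of the 26 tested members among them, it was 30 or fewer for 15. By the same inference a step of 1 read in Hist1h2bj was 0.5754 FPKM in 5-FU recipient 2.

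Members were also grouped by where their GENCODE transcript ends. In 21 members it runs 100 or more bases past it, in 21 it ends within 100 bases of it, and 25 have no match in the annotated transcript. The gene models behind the deposited FPKM are not given, and for some members their lengths may differ from those in GENCODE. Hist1h2bh, of 1679 annotated bases, and Hist1h2bf, of 461, shared an inferred 0.575 FPKM per read in 5-FU recipient 2. Likewise Hist1h4c, of 820 bases, and Hist1h4f, of 391, shared 0.934 FPKM, and Hist1h3d and Hist1h3e, of 1249 and 836 bases, shared 0.491 FPKM with Hist2h3b, of 488 bases. By this annotation the first class held 68.0% of the members' FPKM, the second 5.76% and the third 26.3%, most of it in Hist1h2bc. Members that run past the stem-loop or have more than 1 exon were 24, and they held 88.7%. Of all tested genes 8.23% passed as higher, 4.67% passed as lower and 49.2% had a positive fold change. In the first class 17 were tested, of which Hist1h4d and Hist1h4i rose (11.8%) and Hist1h2bg fell (5.88%). A positive fold change was found for 9 of them (52.9%, median log2 fold change 0.33), so these shares are near those of all tested genes. In the second class 7 were tested, namely Hist1h2ab, Hist1h2ag, Hist1h2bj, Hist1h2bm, Hist1h3a, Hist1h4h and Hist2h2ac, and none passed in limma (2 with an unadjusted p under 0.05, beside 31.4% of all tested genes). All 7 log2 fold changes were positive (0.34 to 0.99, median 0.82), beside 49.2% of all tested genes. In the third 10 were tested, of which Hist1h1b rose (median 0.96). The sums of the second class were 25.7 and 60.7 FPKM in 5-FU recipients and 23.3 and 16.03 FPKM in control recipients, with 5-FU recipient 1 close to control recipient 1. The difference between the classes was not tested, and the annotation cannot show which 3' end these cells used.

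H2A and H2B genes often lie head to head and share the DNA between their starts. Among the members, 12 such pairs were found on opposite strands, 172 to 305 bases apart, of which 2 pairs were at 0 in every library and 5 had both genes tested. Hist1h2ae and Hist1h2bg, whose starts are 175 bases apart, had log2 fold changes of 1.34 and -1.35. That of Hist1h2ae was 0.36 without 5-FU recipient 2, and its value in 5-FU recipient 1 lay within the control values. The ratio of Hist1h2ae to Hist1h2bg FPKM was 1.22 and 7.25 in 5-FU recipients and 0.574 and 0.332 in control recipients, so the groups did not overlap. This ratio restates the opposite fold changes of the same values and adds no separate support. Hist2h2ac and Hist2h2be, 238 bases apart, had log2 fold changes of 0.99 and -0.46. The other 3 pairs had the same sign in both genes. Hist1h2ac and Hist1h2bc, 250 bases apart, had log2 fold changes of -0.61 and -0.87, Hist1h2ak and Hist1h2bn had 1.01 and 1.04, and Hist1h2ag and Hist1h2bj had 0.80 and 0.34. Hist1h2bn reached 1 FPKM in the 5-FU libraries alone, so the filter favoured its positive sign. The 5-FU values of Hist1h2bj lay on opposite sides of the controls, and its log2 fold change was -1.29 without 5-FU recipient 2. Of these genes only Hist1h2bg passed the threshold, and no difference within a pair was tested.

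The region that Hist1h2ae and Hist1h2bg share is printed as the Hist1h2bg promoter (chr13:23571150-23571449, + strand, RefSeq, GRCm38.p6), because its genes had opposite fold changes. In capitals are ATTTGCAT, the octamer known to bind Oct-1, with CCAAT and TATAAA, or their reverse complements. The octamer was in 7 of 18 H2A and 6 of 15 H2B promoters, on either strand, in none of the H1, H3 and H4 promoters, and in 1.74% of all promoters. The region holds 1 octamer, which lies in the stretch between the start sites and so counts for both genes.
Hist1h2bg: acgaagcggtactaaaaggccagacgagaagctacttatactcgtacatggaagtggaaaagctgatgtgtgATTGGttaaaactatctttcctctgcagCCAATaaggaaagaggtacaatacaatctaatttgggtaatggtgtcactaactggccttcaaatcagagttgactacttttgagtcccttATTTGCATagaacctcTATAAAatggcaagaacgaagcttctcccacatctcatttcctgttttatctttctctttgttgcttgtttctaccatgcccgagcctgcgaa

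**Figure D4:**
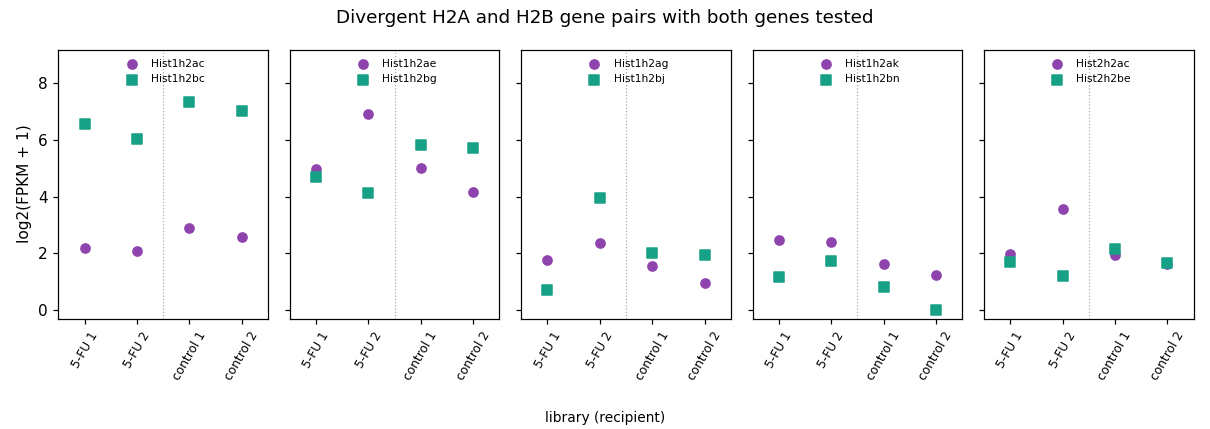
Log2(FPKM + 1) in each library of the 5 head-to-head H2A and H2B pairs with both genes tested, 5-FU libraries left of the dotted line and control libraries right of it. In the Hist1h2ae and Hist1h2bg panel the H2A gene is above the H2B gene in both 5-FU libraries and below it in both control libraries.

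Genes that make, carry or replace these histones were measured in the same libraries. Among 11 tested histone variants encoded outside the clusters, whose mRNAs are mostly polyadenylated, 3 rose and 0 fell (median log2 fold change 0.64). Of all tested genes 8.23% passed as higher and 4.67% as lower. H2afx, whose protein marks DNA breaks and whose transcript carries a stem-loop match, had 174 and 289.6 FPKM in 5-FU recipients, against 69.9 and 57.1 FPKM in control recipients (log2 fold change 1.81, SE 0.27, limma adjusted p = 0.0127). H2afz, which encodes H2A.Z, had 1569 and 2344 FPKM in 5-FU recipients, against 720.2 and 731 FPKM in control recipients (log2 fold change 1.40, limma adjusted p = 0.0244). Each of these single genes was more abundant per length than all 18 H2A cluster genes together in the control libraries. Cenpa, the centromeric H3 variant, also rose (log2 fold change 1.31, limma adjusted p = 0.0189). H3f3a and H3f3b, which encode the replacement histone H3.3, had log2 fold changes of 0.12 and 0.17 and did not pass.

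Among 22 tested genes of histone transcription and 3' end formation, 4 rose and 0 fell (median 0.47), beside 8.23% and 4.67% of all tested genes. Ccne2, a cyclin E that activates histone transcription through CDK2, rose by 1.51, Ncbp1, a cap-binding subunit, by 1.12, Srrt by 0.96 and the transcription factor E2f1 by 0.86 on the log2 scale (limma adjusted p from 0.0239 to 0.0443). Slbp had 135 and 195 FPKM in 5-FU recipients, against 96.8 and 99.6 FPKM in control recipients, without overlap (log2 fold change 0.72, limma adjusted p = 0.0727). Npat, the activator at histone locus bodies, had a log2 fold change of -0.14 and Casp8ap2, also of these bodies, one of 0.67, and neither passed. Of 12 tested genes of histone mRNA translation and decay 0 rose and 0 fell, the smallest limma adjusted p being 0.0582, for the stem-loop exonuclease gene Eri1, and 3 of the 12, Eri1, Lsm4 and Ddx19b, had an unadjusted p under 0.05, beside 31.4% of all tested genes.

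Of 26 tested histone chaperones and importers, 11 rose and 0 fell (median log2 fold change 0.87), beside 8.23% and 4.67% of all tested genes. Nasp, which stores free H3 and H4, had 52.9 and 79.6 FPKM in 5-FU recipients, against 21.9 and 16.8 FPKM in control recipients (log2 fold change 1.70, limma adjusted p = 0.0131). Asf1b, which hands H3 and H4 to assembly factors, had 38.6 and 38.4 FPKM in 5-FU recipients, against 15.4 and 16.7 FPKM in control recipients (log2 fold change 1.21, limma adjusted p = 0.0159). Npm1 rose by 1.84 and Chaf1b, a subunit of chromatin assembly factor 1, by 1.32 on the log2 scale, while Chaf1a, with a log2 fold change of 0.91, did not pass (limma adjusted p = 0.0685).

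The replication genes of S phase moved together. Of 31 tested, 26 rose and 0 fell, beside 8.23% and 4.67% of all tested genes. All 31 fold changes were positive (median 1.32), beside 49.2% of all tested genes. Cdc45, a helicase cofactor, rose by 2.44, Uhrf1, which maintains DNA methylation at replication forks, by 1.98 and Fen1, a flap endonuclease, by 1.58 on the log2 scale (limma adjusted p from 0.00795 to 0.00951). Pcna, the sliding clamp, had 214 and 273 FPKM in 5-FU recipients, against 158 and 133 FPKM in control recipients, without overlap (log2 fold change 0.73, limma adjusted p = 0.0613). Against the summed FPKM of these 31 genes, the summed histone cluster FPKM was 0.309 and 0.316 in 5-FU recipients and 0.537 and 0.487 in control recipients. The cluster genes' sum thus was lower relative to the replication genes in both 5-FU libraries, with no test of that ratio.

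**Figure D5:**
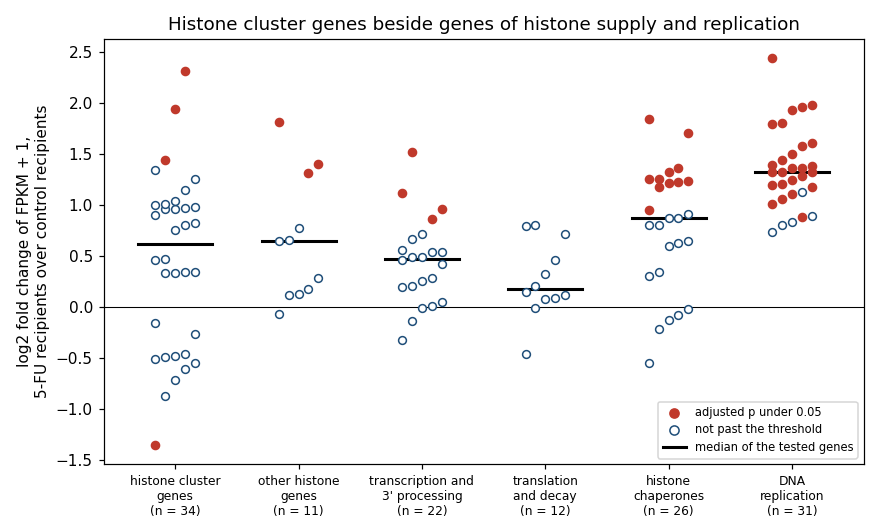
Log2 fold change of FPKM + 1, 5-FU recipients over control recipients, of each tested gene (points) and the median (bars) for the histone cluster genes and 5 lists of related genes. The replication genes lie above 0 throughout with 26 of 31 past the threshold, while the histone cluster genes spread from -1.35 to 2.31 with 4 of 34 past it.

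Transcripts of other cell types also differed between the groups, and their part in the histone differences was not tested. The counts below stand beside 8.23% higher and 4.67% lower of all tested genes. Stem and progenitor markers were present, with all 14 in the table and none at 0 in both libraries of a group, and summed to 728 and 944 FPKM in 5-FU recipients and to 865 and 802 FPKM in control recipients (1 of 13 tested rose). Macrophage markers were far more abundant, at 22178 and 11658 FPKM in 5-FU recipients and 25654 and 29984 FPKM in control recipients, with 3 of 17 lower. Erythroid markers summed to 182 and 265 FPKM in 5-FU recipients and to 1616 and 2276 FPKM in control recipients, with 10 of 11 lower and Ermap and Ank1 at 0 in both 5-FU libraries. Ermap had 3.63 and 2.19 FPKM in control recipients. Ank1, which was not tested, had only 0.0328 and 0.0473 FPKM there, so its 0 says little. Granulocyte markers summed to 3849 and 3633 FPKM in 5-FU recipients and to 12807 and 10218 FPKM in control recipients, with 7 of 14 lower and Fcnb at 0 in both 5-FU libraries. B lineage markers summed to 237 and 179 FPKM in 5-FU recipients and to 448 and 439.9 FPKM in control recipients, with 6 of 10 lower and Igll1 at 0 in both 5-FU libraries. The labelled cell type is hematopoietic stem and progenitor cells, and in every library the summed macrophage markers exceeded the summed stem and progenitor markers.

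The calls of Hist1h4d, Hist1h4i and Hist1h2bg depended on both control libraries, and that of Hist1h1b on control recipient 2. With either control library left out, fewer members and far fewer of all tested genes passed the threshold. The loss was therefore not particular to the members. In these fits the lone control library was assumed to vary like the 5-FU libraries, and the log2 fold changes stayed at 1.87 to 2.01 for Hist1h4d, 1.373 to 1.497 for Hist1h4i and -1.40 to -1.30 for Hist1h2bg. That of Hist1h1b was 2.97 without control recipient 1 and 1.66 without control recipient 2. The members' median log2 fold change of 0.61 was 0.32 without control recipient 2 and 0.71 without control recipient 1. The members' median was 0.54 without 5-FU recipient 1 and 0.42 without 5-FU recipient 2. With either 5-FU library left out, more of the members and more of all tested genes passed.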

How the data were processed

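The libraries were made from cells of single recipients with miRNeasy RNA purification, the Clontech SMART-Seq Ultra Low Input kit, Covaris shearing and KAPA preparation, then sequenced from one end for 75 bp, per the labels' protocols. Per the submitters' processing notes, the authors used build mm10, TopHat2 2.0.13, Bowtie2 2.2.3, SAMtools 0.1.19 and Cuffnorm 2.2.1. The authors deposited FPKM. Cuffnorm's normalization setting, the gene annotation and the treatment of reads that match several copies are stated nowhere in the labels or headers. The column headers of the 5-FU libraries name another day than their files, and groups follow the labels.

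On the log2 scale, after adding 1 to the deposited FPKM, every gene that reached 1 FPKM in 2 or more of the 4 libraries was fitted with limma 3.58.1 (R 4.3.3, lmFit, eBayes with trend, group alone, two-sided, Benjamini-Hochberg over 11496 genes, threshold 0.05; 2 residual and 5.62 prior degrees of freedom). No exact permutation test was used, since 2 against 2 cannot go below p = 0.333. Depth is unknown. Whole reads were inferred from steps of low values in 81.1% of 5172 other low genes, to within 0.02 reads, and not for the abundant genes, so no count test was run. That share includes genes above 0 in only 2 libraries, for which nearly any 2 values yield a step. It therefore does not measure how often the inference is right. The fit and the read inference were tested on simulated data. Stem-loops and positions came from GENCODE M21 (GRCm38, the build that mm10 corresponds to), promoters from RefSeq by Entrez identifier. Tables were handled with pandas 2.3.3 (Python 3.11.15) and figures drawn with matplotlib 3.10.9.

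Every member passing the filter is named or within a range, and of the others those reaching 1 FPKM; of each related list, the 3 tested genes of smallest p and a fixed set (Slbp, Npat, Casp8ap2, H2afz, H2afx, H3f3a, H3f3b, Asf1b, Chaf1a, Chaf1b, Nasp and Pcna). Members and lists were chosen with earlier results of these data known. Alternatives were other pseudocounts, filters, scalings and variance models, a replicate block, leaving out each library, and, added after seeing the data, the crossed block and the sum without Hist1h4d. The labels do not say whether donor cells were pooled, so p-values measure the spread between these libraries.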

Additional observations from a re-analysis of the deposited data

How the results depend on the processing

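Among the alternative values of the 34 tested members, 441 kept direction and side of the threshold, 26 came to pass it, 11 no longer did and 10 reversed; causes were not tested. With no filter, the counts were 0 higher and 0 lower of 53 members (14 at an unadjusted limma p under 0.05) and 3 and 4 of all 16391 genes, and the adjusted p was 0.0834 for Hist1h4d and Hist1h4i, 0.0845 for Hist1h2bg and 0.128 for Hist1h1b. A filter of 5 FPKM, a pseudocount of 5 and quantile normalization each gave 2 lower members, the added one being Hist1h2bc. The members' median log2 fold change was 0.97 with the 5 FPKM filter, which left only 12 members. Over the 34 members it was 1.04 with a pseudocount of 0.1 and 0.27 with a pseudocount of 5. With 1 library left out it ran from 0.32 (without control recipient 2) to 0.71 (without control recipient 1), with 0.42 without 5-FU recipient 2 and 0.54 without 5-FU recipient 1. Without a variance trend, 548 genes were higher and 299 lower. Same-numbered replicates did not deviate together (r = -0.16 across 11496 genes), and the replicate block left the members' counts at 3 and 1. A crossed pairing, chosen after seeing the data, gave 11 and 2 members, and 1686 and 1365 of all genes. Leaving out each library gave 0 to 10 higher and 0 to 4 lower members, and 88 to 2122 higher and 38 to 1876 lower genes. The highest counts, of members and of all genes, came without 5-FU recipient 1, and the lowest came in fits that left out a control recipient. Of the members' log2 fold changes, 10 reversed, all in fits that left out a library, and over these fits the 8 genes concerned had these ranges. Without control recipient 1 Hist1h2ai reached -0.15, Hist1h3a -0.090 and Hist2h3c1 0.19, within ranges of -0.15 to 1.08, -0.090 to 0.77 and -0.50 to 0.19. Without control recipient 2 Hist1h3e reached -0.23, Hist1h3f 0.031 and Hist2h4 -0.70, within ranges of -0.28 to 0.96, -0.99 to 0.031 and -0.70 to 2.204. Without 5-FU recipient 1 Hist1h2an reached 0.12, Hist1h3e -0.28 and Hist2h3c1 0.020, with a range of -0.66 to 0.12 for Hist1h2an. Without 5-FU recipient 2 Hist1h2bj reached -1.29, within a range of -1.29 to 1.96. The summed log2 ratio of 0.60 was 0.31 to 0.85 with 1 library left out and 0.024 without Hist1h4d. Read numbers are known only as smallest values, which limits statements on single low copies.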

Other observations

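The library in which a gene was highest was counted over the tested genes. Of the 34 tested histone cluster genes, 8 and 13 were highest in 5-FU recipients 1 and 2, and 9 and 4 in control recipients 1 and 2. Over all 11496 tested genes the shares were 17.6% and 35.2% in 5-FU recipients and 22.5% and 24.8% in control recipients. Of the 31 replication genes, 29 were highest in 5-FU recipient 2 and 2 in 5-FU recipient 1. Hist1h2bj, Hist1h2ae and Hist2h2ac were each far higher in 5-FU recipient 2 than in any other library. These 3 genes were singled out for this after their values were seen. That they share their highest library with most replication genes therefore followed from the choice and carries no information.

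The Hist3 and Hist4 genes, which lie apart from the main cluster on chromosomes 11 and 6, summed to lower levels in 5-FU recipients. The 3 Hist3 genes summed to 8.09 and 8.07 FPKM in 5-FU recipients and to 15.1 and 13.7 FPKM in control recipients, most of it Hist3h2a (90.7%). Reads of Hist3h2a cannot be told from those of Trim17. Hist4 is Hist4h4 alone, at 2.11 and 1.45 FPKM in 5-FU recipients and 3.85 and 2.39 FPKM in control recipients. Neither Hist3h2a nor Hist4h4 passed the threshold. Both 5-FU libraries were below both control libraries for 30.7% of all tested genes. The Hist1 genes summed to 511 and 750.1 FPKM in 5-FU recipients and to 438 and 368 FPKM in control recipients, and the Hist2 genes to 16.3 and 19.6 FPKM in 5-FU recipients and to 18.1 and 6.80 FPKM in control recipients. No difference between the clusters was tested.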
